A study of Mus musculus with 14 samples.

Results

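The 10 Toll-like receptor genes described here are Tlr1, Tlr2, Tlr3, Tlr4, Tlr5, Tlr6, Tlr7, Tlr8, Tlr9 and Tlr13. Transcription factor (TF) binding at these genes was read from 14 chromatin immunoprecipitation sequencing (ChIP-seq) peak lists, and a peak was counted at a gene when it overlapped the RefSeq span of the gene or the 20 kb on either side of it. The 10 genes are 10 of 21774 protein-coding genes to which the same window was applied, and their windows held 109 of the 158488 peaks in the lists, each peak counted once. The lists came from cells differentiated in culture from one mouse embryonic stem cell line of strain 129 that carries a green fluorescent protein reporter for Brachyury, so all groups share that line and its reporter. Mesoderm cells (MES, Brachyury reporter positive and FLK1-) gave lists for C/EBPβ and ELK4, and hemangioblasts (HB, reporter positive and FLK1+) gave lists for C/EBPβ and GATA2. Hemogenic endothelium (HE, Tie2+, cKit+ and CD41-) gave one list for C/EBPβ. CD41+ hematopoietic progenitors (HP) gave lists for C/EBPβ, GATA1, GATA2, GFI1B, RUNX1 and PU.1, and CD11b+ macrophages (MAC) gave lists for C/EBPβ, RUNX1 and PU.1. No other genotype, treatment or age enters the groups.

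Each combination of stage and factor is a single list of intervals of 400 bp without heights or scores. For the C/EBPβ lists of MES, HE and HP, the HB GATA2 list and the MAC RUNX1 list, the study's supplement states that technical replicates were merged. The data used here therefore have no replicates and allows no test between stages or factors, and all counts below describe these lists. The lists ranged from 72 peaks (MAC RUNX1) to 82866 peaks (MAC PU.1), with thresholds set for each list by eye, so a longer list is not a larger amount of binding. The study's supplement gives the MAC RUNX1 list the same length as the MAC list of another factor, and its identity could not be checked here. MAC C/EBPβ held 55471 peaks, HP PU.1 10943 and HP C/EBPβ 2716. Read depth was not used here, and no expression values were used that could set the sorted populations against their marker genes. Exact 95% binomial (Clopper-Pearson) intervals on shares cover counting error only.

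Toll-like receptors are membrane receptors of innate immune cells that recognise molecules of microbes and signal through a shared intracellular domain. Cell-surface receptors of the family sense bacterial envelope and flagellum: TLR2 pairs with TLR1 or TLR6 to bind lipopeptides, TLR4 binds lipopolysaccharide, and TLR5 binds flagellin. Endosomal receptors sense nucleic acids: TLR3 binds double-stranded RNA, TLR7 and TLR8 belong to the receptors for single-stranded RNA, TLR9 recognises unmethylated CpG DNA, and mouse TLR13 recognises bacterial ribosomal RNA. PU.1, encoded by Spi1, and C/EBPβ are TFs of the myeloid lineage and are known to bind together at many macrophage enhancers. PU.1 has lists of HP and MAC only. In HP its peaks were present at 7 of the 10 receptor genes, beside 38.2% of all coding genes, and in MAC both PU.1 and C/EBPβ had peaks at all 10, beside 71.4%.

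The sequences under the HP PU.1 peaks are shown first, because HP is the earlier of the stages with a PU.1 list. They were read from GRCm38 on the strand of the receptor gene, 5′ to 3′, from up to 60 bases on either side of the peak centre. At a transcription start site (TSS) the stretch ends where the annotated transcript begins, and where the centre lies inside the transcript the adjoining promoter bases of the same peak are given. Capitals mark the PU.1 consensus GAGGAAGT, which reads ACTTCCTC on the other strand, or the C/EBP consensus TTGCNNAA, which reads TTNNGCAA on the other strand. For Tlr4 and Tlr9, whose consensus lies inside the transcribed leader, the 8 bases of the site and 11 bases on either side of it are given as well. All 4 exact PU.1 sites in the HP PU.1 peaks, those of Tlr2, Tlr4, Tlr6 and Tlr9, read ACTTCCTC along the direction of transcription, and the Tlr13 stretch carries a C/EBP consensus.
Tlr4 promoter, chr4:66827430-66827550: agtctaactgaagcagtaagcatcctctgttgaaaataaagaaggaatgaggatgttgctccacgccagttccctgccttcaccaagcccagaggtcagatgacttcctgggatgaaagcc
Tlr4 PU.1 site, chr4:66827682-66827711: ttggcactctcACTTCCTCtttgaatatag
Tlr9 promoter, chr9:106222536-106222597: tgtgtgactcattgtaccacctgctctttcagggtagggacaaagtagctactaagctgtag
Tlr9 PU.1 site, chr9:106222597-106222626: gtgaaagtgtcACTTCCTCaattctctgag
Tlr2 upstream, chr3:83849505-83849625: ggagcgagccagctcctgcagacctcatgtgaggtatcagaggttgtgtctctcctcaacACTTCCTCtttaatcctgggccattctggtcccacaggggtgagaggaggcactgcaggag
Tlr6 intron, chr5:64960897-64961017: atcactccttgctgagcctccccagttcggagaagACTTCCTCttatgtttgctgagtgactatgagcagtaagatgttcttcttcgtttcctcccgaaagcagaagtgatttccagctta
Tlr13 upstream, chrX:106134965-106135085: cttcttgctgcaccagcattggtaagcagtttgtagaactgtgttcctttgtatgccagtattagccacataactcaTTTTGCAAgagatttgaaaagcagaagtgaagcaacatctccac

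The remaining HP PU.1 peaks, upstream of Tlr5 and Tlr3 and downstream of Tlr9, held no exact match to the PU.1 consensus of 8 bases in their 400 bp. Their central stretches are shown without capitals for comparison, and the Tlr9 downstream stretch contains a run of alternating g and t beside its centre.
Tlr5 upstream, chr1:182953787-182953907: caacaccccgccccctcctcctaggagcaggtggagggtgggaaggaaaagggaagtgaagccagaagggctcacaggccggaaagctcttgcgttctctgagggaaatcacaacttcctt
Tlr3 upstream, chr8:45415085-45415205: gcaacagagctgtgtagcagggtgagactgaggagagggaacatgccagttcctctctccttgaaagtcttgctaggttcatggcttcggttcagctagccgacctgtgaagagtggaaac
Tlr9 downstream, chr9:106230166-106230286: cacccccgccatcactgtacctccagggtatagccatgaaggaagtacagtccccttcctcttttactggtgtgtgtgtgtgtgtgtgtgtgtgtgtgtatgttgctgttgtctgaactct

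Tlr7 and Tlr8 had no HP PU.1 peak in their windows. For these genes the promoter stretches under the MAC C/EBPβ peaks are shown, each with a C/EBP consensus in capitals.
Tlr7 promoter, chrX:167330575-167330655: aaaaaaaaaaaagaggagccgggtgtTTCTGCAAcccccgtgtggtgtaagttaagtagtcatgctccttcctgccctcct
Tlr8 promoter, chrX:167264330-167264450: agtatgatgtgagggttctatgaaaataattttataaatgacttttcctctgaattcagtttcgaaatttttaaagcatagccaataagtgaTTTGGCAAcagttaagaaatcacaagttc

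With 20 kb on either side, peaks at the receptor genes came from 4 of the 14 lists. Of the 140 combinations of gene and list, 29 held at least 1 peak. The lists of MES C/EBPβ, MES ELK4, HB C/EBPβ, HB GATA2, HE C/EBPβ, HP GATA1, HP GATA2, HP GFI1B, HP RUNX1 and MAC RUNX1 held no peak in any of the 10 windows. These 10 lists were short, and few coding genes had a peak of any single one of them in the same window. The share of coding genes with a peak was 6.47% for MES C/EBPβ, 4.66% for MES ELK4, 4.24% for HB C/EBPβ, 0.363% for HB GATA2 and 0.684% for HE C/EBPβ. It was 1.75% for HP GATA1, 3.36% for HP GATA2, 11.8% for HP GFI1B, 7.79% for HP RUNX1 and 0.478% for MAC RUNX1. Most coding genes therefore also lacked a peak of each of these lists. A peak of at least 1 of these 10 lists was present at 27.5% of coding genes and at none of the 10 receptors. This difference was not tested.

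In HP, 7 of the 10 receptor genes held a PU.1 peak, beside 38.2% of all coding genes. Tlr9 held 2 HP PU.1 peaks, and Tlr2, Tlr3, Tlr4, Tlr5, Tlr6 and Tlr13 held 1 each. Tlr1, Tlr7 and Tlr8 held none. The count fell with the window, to 5 receptors with 5 kb on either side, beside 26.2% of coding genes, and to 3 in the gene spans alone, beside 20.2%. HP C/EBPβ peaks were present at 2 of 10 genes, Tlr5 and Tlr13, beside 14.8% of coding genes. Neither peak lay in the gene span or within 5 kb of it, so the count was 0 in both narrower windows, beside 6.71% of coding genes for the spans and 9.36% with 5 kb. In MAC, all 10 genes held a PU.1 peak, beside 79.1% of coding genes, and all 10 held a C/EBPβ peak, beside 73.8%. Both MAC factors were listed at all 10 genes, and at 71.4% of coding genes. The 7 genes with PU.1 in HP all had PU.1 in MAC as well, a combination found at 38.1% of coding genes. Because the MAC lists reach most genes, presence alone sets the receptors little apart from other genes in MAC.

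**Figure D1:**
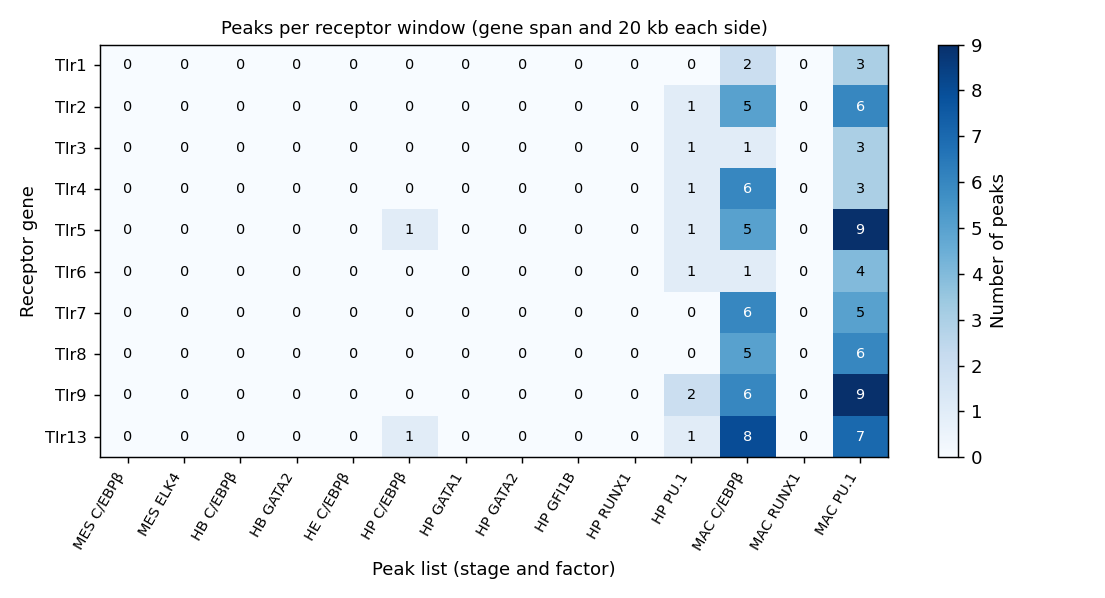
Number of peaks in the window of each receptor gene (rows) in each of the 14 peak lists (columns), with darker cells for higher counts. Counts above 0 appear only in the columns of HP C/EBPβ, HP PU.1, MAC C/EBPβ and MAC PU.1, and the highest count is 9, for MAC PU.1 at Tlr5 and Tlr9.

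The number of MAC peaks differed among the receptors. The windows held 54 distinct MAC PU.1 peaks, with a median of 5.5 per gene (range 3 to 9), beside a median of 4 over all coding genes. Tlr5 and Tlr9 held 9 MAC PU.1 peaks each, Tlr13 held 7, Tlr2 and Tlr8 held 6 each, Tlr7 held 5, Tlr6 held 4, and Tlr1, Tlr3 and Tlr4 held 3 each. The windows held 45 distinct MAC C/EBPβ peaks, with a median of 5 per gene (range 1 to 8), beside a median of 2 over all coding genes. Tlr13 held the most C/EBPβ peaks, 8, followed by Tlr4, Tlr7 and Tlr9 with 6 each, Tlr2, Tlr5 and Tlr8 with 5 each, Tlr1 with 2, and Tlr3 and Tlr6 with 1 each. Tlr4, Tlr7 and Tlr13 held more MAC C/EBPβ than MAC PU.1 peaks. Tlr1 and Tlr6 lie next to each other, and 1 MAC PU.1 peak falls in both windows; as a cluster they held 6 PU.1 peaks and 3 C/EBPβ peaks in MAC and 1 PU.1 peak in HP.

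Windows are longer for longer genes, so peaks were also set against window length, as peaks per 10 kb. The median density of MAC C/EBPβ at the receptors was 0.854 peaks per 10 kb, against 0.317 over all coding genes, and the median of the receptors' percentiles (the percent of coding genes with a lower density) was 86.7. Tlr13 (1.4 peaks per 10 kb, percentile 98.1) and Tlr9 (1.36, percentile 97.7) were highest, and Tlr6 (0.173, percentile 35) and Tlr3 (0.18, percentile 35.9) were lowest. For MAC PU.1 the median density was 0.847 peaks per 10 kb, against 0.524 over all coding genes, with a median percentile of 67.9. Tlr9 had the highest PU.1 density, 2.03 peaks per 10 kb (percentile 96.7), and Tlr4 the lowest, 0.508 (percentile 49.2). Tlr4 thus stood at percentile 92.1 for C/EBPβ density and near the middle of all genes for PU.1 density. These percentiles are descriptions of 1 list each and carry no test.

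**Figure D2:**
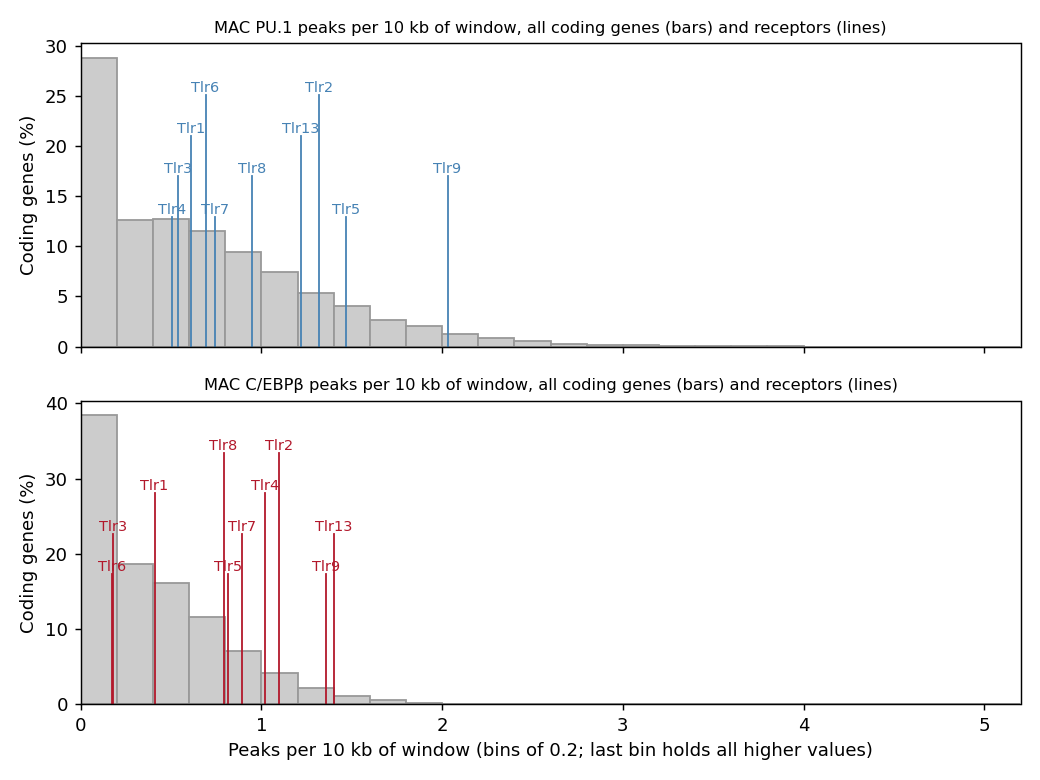
Peaks per 10 kb of window for all coding genes (grey bars, percent of genes in each bin) and for the 10 receptors (lines) in the MAC PU.1 list (top) and the MAC C/EBPβ list (bottom). Receptor lines for C/EBPβ lie to the right of most coding genes except those of Tlr3 and Tlr6, while PU.1 lines spread from 0.508 (Tlr4) to 2.03 (Tlr9).

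A window reaches into neighbouring genes, so each peak was also assigned to the coding gene with the nearest TSS. All 8 HP PU.1 peaks and both HP C/EBPβ peaks lay nearest to a receptor TSS. Of the 54 MAC PU.1 peaks, 42 lay nearest to a receptor TSS and 12 to that of another gene, and of the 45 MAC C/EBPβ peaks 38 and 7 did so. At Tlr9, 6 of 9 PU.1 peaks and 5 of 6 C/EBPβ peaks were closer to Twf2, which encodes an actin-binding protein, or to Alas1, which encodes an enzyme of heme synthesis. At Tlr8, 5 of 6 PU.1 peaks and 2 of 5 C/EBPβ peaks were closer to Tmsb4x, which encodes thymosin β4. At Tlr13, 1 PU.1 peak was closer to Pgk1, which encodes a glycolytic enzyme. The high MAC PU.1 density at Tlr9 therefore rests on 3 peaks nearest to Tlr9 and 6 nearest to its neighbours, whereas all 9 PU.1 peaks of Tlr5, all 6 of Tlr2 and all 8 C/EBPβ peaks of Tlr13 were nearest to the receptor itself. By annotation, the centres of 30 MAC PU.1 peaks were intergenic, 19 intronic and 5 in untranslated exon sequence. For MAC C/EBPβ, 25 were intergenic, 16 intronic, 3 in untranslated exon sequence and 1 in a coding exon, which belongs to Alas1. None of the 109 peaks lay for more than 50% of its length in repeat-masked sequence, which applied to 3.36% of all MAC PU.1 peaks and 1.68% of all MAC C/EBPβ peaks.

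**Figure D3:**
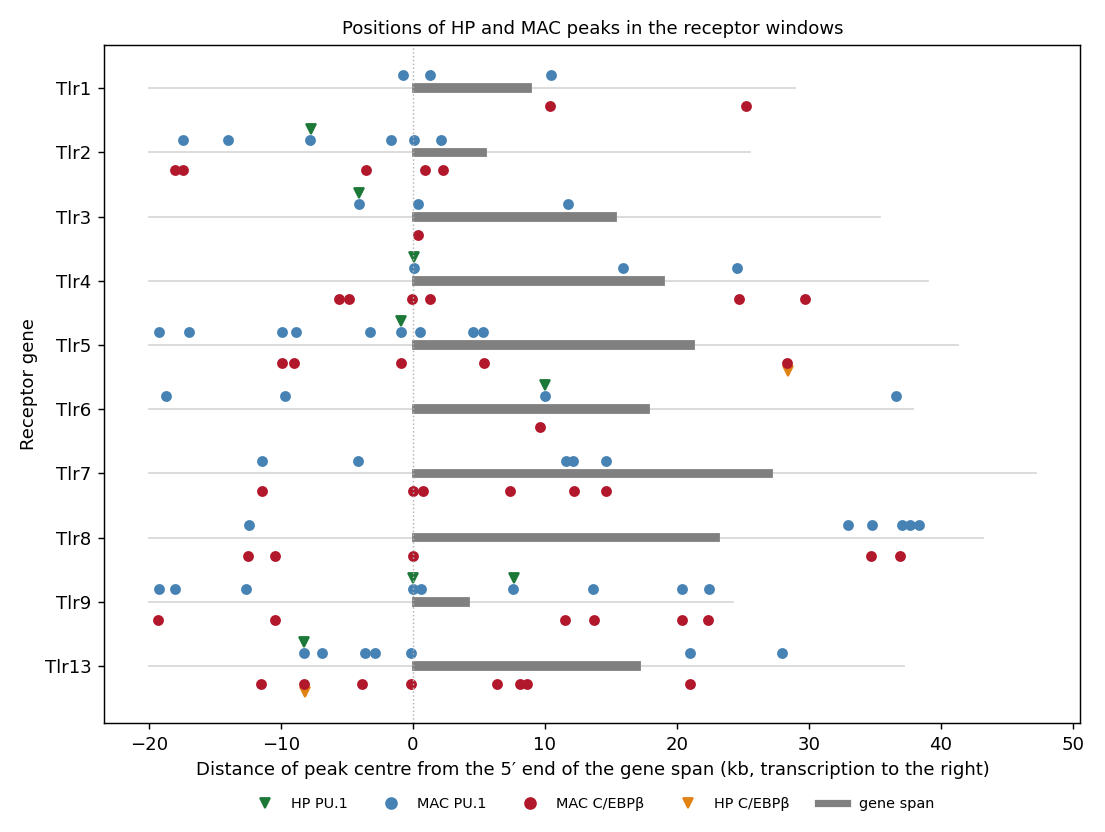
Positions of HP PU.1 and HP C/EBPβ peaks (triangles) and MAC PU.1 and MAC C/EBPβ peaks (circles) in each receptor window, as the distance in kb from the 5′ end of the gene span (grey bar), with transcription to the right. Each HP triangle sits over a MAC circle of the same factor, and the windows of Tlr1, Tlr7 and Tlr8 hold no triangle.

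Occupancy of the receptors' own promoters was read as a peak centre within 2 kb of an annotated TSS of the gene. In MAC, 8 of 10 receptors held a promoter peak of PU.1, beside 52.4% of coding genes, and 8 of 10 held one of C/EBPβ, beside 39.1%. All 10 receptors had at least 1 of the 2 MAC factors at the promoter, beside 58.9% of coding genes, and 6 had both, beside 32.6%. In HP, 4 of 10 receptors held a promoter peak of PU.1, beside 10.5% of coding genes, and none held one of C/EBPβ, beside 4.31% of coding genes.

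The promoters fell into 3 kinds in MAC. Tlr2, Tlr3, Tlr4, Tlr5, Tlr6 and Tlr13 had both factors. The nearest PU.1 peak centre was 31 bp from a TSS at Tlr3, 76 bp at Tlr2, 83 bp at Tlr4, 136 bp at Tlr13, 230 bp at Tlr5 and 916 bp at Tlr6. The nearest C/EBPβ centre was 53 bp from a TSS at Tlr4, 75 bp at Tlr3, 147 bp at Tlr13, 493 bp at Tlr2, 901 bp at Tlr5 and 1268 bp at Tlr6. Tlr1 and Tlr9 had only PU.1 there: its centre was 378 bp from a Tlr1 TSS and 9 bp from the Tlr9 TSS, while the nearest C/EBPβ peaks were 9492 and 10442 bp away. Tlr7 and Tlr8 had only C/EBPβ there: its centre was 21 bp from the Tlr7 TSS and 41 bp from the Tlr8 TSS, while the nearest PU.1 peaks were 4189 and 12414 bp away. Tlr7 and Tlr8, neighbours on chromosome X, also lacked HP PU.1 peaks, the nearest of which lay 120198 bp from a Tlr7 TSS and 49166 bp from a Tlr8 TSS.

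Each receptor locus is described in turn, the cell-surface receptors first, with gene coordinates in GRCm38 and distances from the peak centre to the 5′ end of the gene span unless a TSS is named. Tlr4 (chr4:66827551-66846581, plus strand) has no other gene in its window. Its HP PU.1 peak was centred 71 bp downstream of the TSS, in the transcribed leader, and the MAC PU.1 peak at 83 bp, so their centres differed by 12 bp. A MAC C/EBPβ peak overlapped both, 53 bp upstream of the TSS, with its centre 136 bp from the MAC PU.1 centre. PU.1 and C/EBPβ overlapped a second time in MAC 24.62 kb downstream, beyond the 3′ end of the gene (chr4:66851904-66852449). The remaining C/EBPβ peaks of Tlr4, at 5592 and 4848 bp upstream and at 1322 and 29698 bp downstream, had no PU.1 peak on them, and 1 PU.1 peak lay in the 3′ untranslated exon, 15893 bp downstream.

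Tlr2 (chr3:83836272-83841824, minus strand) held its HP PU.1 peak 7741 bp upstream, over the exact PU.1 site printed above, which lies 3 bp from the peak centre. The MAC PU.1 peak at the same place was centred 13 bp away and had no C/EBPβ peak on it. The MAC list added PU.1 peaks at 17432, 14011 and 1642 bp upstream and at 76 and 2166 bp downstream. C/EBPβ overlapped PU.1 at 2 of these places, 17.43 kb upstream (centres 14 bp apart) and in the intron 2.21 kb downstream (centres 97 bp apart).

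Tlr5 (chr1:182954752-182976044, plus strand) held its HP PU.1 peak 905 bp upstream of the 5′ end. In MAC, PU.1 was centred at 892 bp and C/EBPβ at 901 bp upstream, so these 3 peaks had centres within 13 bp. A second MAC PU.1 peak of the promoter lay 525 bp downstream of the 5′ end, 230 bp from a TSS. PU.1 and C/EBPβ also overlapped in MAC 9.91 and 8.92 kb upstream and in an intron 5.34 kb downstream. The HP C/EBPβ peak of Tlr5 lay beyond the 3′ end, 28383 bp from the 5′ end (chr1:182982936-182983335), with a MAC C/EBPβ peak 25 bp away and no PU.1 peak of either stage on it.

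Tlr1 (chr5:64924680-64933600) and Tlr6 (chr5:64953092-64970942), both on the minus strand, form a cluster. The single HP PU.1 peak of the cluster lay in an intron of the longest Tlr6 model, 909 bp upstream of the TSS of curated Tlr6 transcripts. The MAC PU.1 peak there was centred 7 bp away, and a MAC C/EBPβ peak overlapped them by its edge, with centres 352 bp apart. Both remaining PU.1 peaks upstream of Tlr6, at 9681 and 18696 bp, lay in introns of Fam114a1. At Tlr1, 2 MAC PU.1 peaks flanked the start of the gene, 775 bp upstream and 1279 bp downstream, and neither had a C/EBPβ peak on it. The shared PU.1 and C/EBPβ region of Tlr1 lay beyond its 3′ end, 10.41 kb downstream of the 5′ end, with centres 37 bp apart.

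Among the endosomal receptors, Tlr9 (chr9:106222598-106226876, plus strand) held 2 HP PU.1 peaks. The first was centred 2 bp upstream of the TSS and the second 7628 bp downstream, beyond the 3′ end of the gene. The MAC PU.1 peaks lay 11 and 12 bp from them, and neither region had a C/EBPβ peak. A further MAC PU.1 peak lay in an intron of Tlr9, 602 bp downstream. All 4 regions of the window where MAC C/EBPβ and MAC PU.1 overlapped were in introns of Twf2 (1 region) or Alas1 (3 regions).

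Tlr3 (chr8:45395665-45411075, minus strand) held its HP PU.1 peak 4070 bp upstream, with the MAC PU.1 peak 3 bp away and no C/EBPβ. Its only MAC C/EBPβ peak was at the promoter, with a PU.1 peak 44 bp away. Tlr13 (chrX:106143275-106160493, plus strand) held the only region of the 10 windows listed for PU.1 and C/EBPβ at both stages (chrX:106134826-106135301), 8.21 kb upstream. In MAC, the PU.1 and C/EBPβ centres of this region were 1 bp apart, and in HP they were 76 bp apart. The HP and MAC centres differed by 45 bp for PU.1 and by 30 bp for C/EBPβ. The factors also overlapped in MAC 3.73 kb upstream, at the promoter (centres 11 bp apart), and 20.96 kb downstream, past the 3′ end (centres 6 bp apart). C/EBPβ peaks in the Tlr13 intron, at 6339, 8136 and 8662 bp, had no PU.1 peak on them.

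Tlr7 (chrX:167303380-167330574) and Tlr8 (chrX:167241123-167264329), both on the minus strand, have windows that overlap by 950 bp, with no peak in the overlap. At Tlr7, PU.1 and C/EBPβ overlapped in MAC at 3 regions: 11.42 kb upstream with centres 2 bp apart, and in introns 12.17 and 14.63 kb downstream with centres 26 and 45 bp apart. The C/EBPβ peaks at the Tlr7 promoter and 772 and 7362 bp downstream had no PU.1 peak on them. At Tlr8, the only overlap nearest to the gene lay 12.45 kb (middle of the region) upstream (centres 62 bp apart), and the other 2 lay far beyond its 3′ end, nearest to Tmsb4x.

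Over the receptor windows, PU.1 peaks of HP were found again in MAC without exception. All 8 HP PU.1 peaks overlapped a MAC PU.1 peak (100%, interval 63.1% to 100%), beside 97% of all HP PU.1 peaks. The centres of the 2 stages differed by a median of 12 bp (range 3 to 45 bp). In the other direction, 8 of 54 MAC PU.1 peaks at the receptors (14.8%, interval 6.62% to 27.1%) overlapped a HP PU.1 peak, beside 12.8% of all MAC PU.1 peaks. The interval of the receptors includes the value of the whole list in both directions. Both HP C/EBPβ peaks were found again in MAC, beside 91.4% of all HP C/EBPβ peaks.

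C/EBPβ and PU.1 overlapped at 25 places in MAC. This was 25 of 45 MAC C/EBPβ peaks at the receptors (55.6%, interval 40% to 70.4%), beside 42.5% of all MAC C/EBPβ peaks, and 25 of 54 MAC PU.1 peaks (46.3%, interval 32.6% to 60.4%), beside 28.5% of all MAC PU.1 peaks. The first interval includes the value of the whole list and the second does not, but neighbouring peaks share a window and are not independent of each other. The centres of the 2 factors in these regions were a median of 45 bp apart (range 1 to 352 bp). Every receptor window held at least 1 such region, beside 57.5% of coding genes, with 4 each at Tlr5, Tlr9 and Tlr13, 3 each at Tlr7 and Tlr8, 2 each at Tlr2 and Tlr4, and 1 each at Tlr1, Tlr3 and Tlr6. Merged over all lists, the windows held 74 separate regions: 25 with MAC PU.1 alone, 19 with MAC C/EBPβ alone, 21 with both MAC factors and no HP peak, and 9 with a HP peak.

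**Figure D4:**
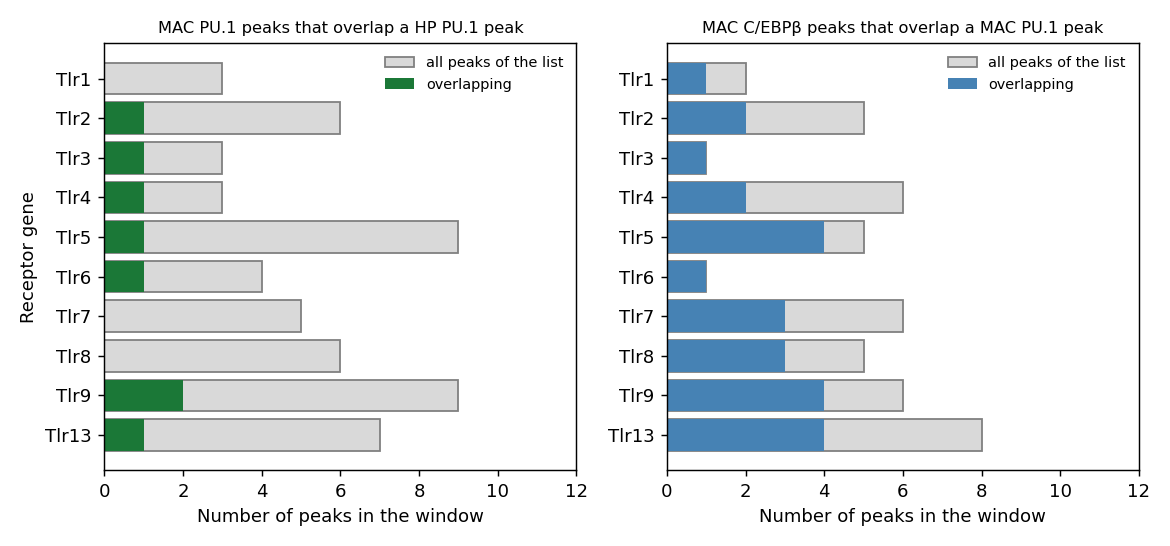
Peaks per receptor window: left, MAC PU.1 peaks (grey) and those that overlap a HP PU.1 peak (green); right, MAC C/EBPβ peaks (grey) and those that overlap a MAC PU.1 peak (blue). At most 2 MAC PU.1 peaks per receptor, those of Tlr9, were listed in HP, and each receptor had at least 1 C/EBPβ peak on a PU.1 peak.

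C/EBPβ was the only factor with lists at all 5 stages. It gave 0 peaks at the receptors in MES, HB and HE, 2 in HP and 45 in MAC. The MES, HB and HE lists were short (1177, 715 and 132 peaks), and that of HP (2716 peaks) was far shorter than the MAC list. The peaks at the receptors made up 0.0736% of the HP list and 0.0811% of the MAC list. The earlier C/EBPβ peaks closest to a receptor were 118052 bp from Tlr1 in MES, 62348 bp from Tlr1 in HB and 6633914 bp from Tlr2 in HE.

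Surface and endosomal receptors had overlapping ranges of peak counts. The 5 surface receptors held a median of 4 MAC PU.1 peaks (range 3 to 9) and the 5 endosomal receptors a median of 6 (range 3 to 9). With Tlr1 and Tlr6 taken as 1 locus and their shared peak counted once, the surface median was 6 as well. For MAC C/EBPβ the medians were 5 (range 1 to 6) and 6 (range 1 to 8). HP PU.1 peaks were present at 4 surface and 3 endosomal receptors, beside 38.2% of coding genes. HP PU.1 promoter peaks were present at 3 surface receptors (Tlr4, Tlr5 and Tlr6) and 1 endosomal receptor (Tlr9), beside 10.5% of coding genes. A MAC PU.1 promoter peak was present at all 5 surface receptors and at 3 of 5 endosomal receptors, beside 52.4% of coding genes. With 1 list per factor, the classes were not tested against each other.

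Consensus sequences were searched on both strands of the 400 bp of each peak and of 2 windows of equal width, 2 kb to either side. The PU.1 consensus was present in 4 of 8 HP PU.1 peaks at the receptors (50%, interval 15.7% to 84.3%) and in 1 of 16 flanking windows (6.25%), beside 42.1% of all HP PU.1 peaks and 2.93% of their flanks. In MAC it was present in 10 of 54 PU.1 peaks (18.5%, interval 9.25% to 31.4%) and in 2 of 108 flanking windows (1.85%), beside 24.4% of all MAC PU.1 peaks and 2.81% of their flanks. The C/EBP consensus was present in 16 of 45 MAC C/EBPβ peaks (35.6%, interval 21.9% to 51.2%) and in 16 of 90 flanking windows (17.8%), beside 41.9% of all MAC C/EBPβ peaks and 15.7% of their flanks. Both HP C/EBPβ peaks, at Tlr5 and Tlr13, held the C/EBP consensus, beside 64% of all HP C/EBPβ peaks. The receptor peaks thus lay within counting error of their lists for both factors. The PU.1 consensus occurred in 3.2% and the C/EBP consensus in 10.8% of 32851 RefSeq promoter sequences of GRCm38. The length of these sequences is not given here, so their shares cannot be set directly against those of 400 bp windows.

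For the other consensus sequences, the interval of the MAC PU.1 peaks at the receptors included both the share of their flanks and that of the whole list. The C/EBP consensus was present in 12 of 54 of these peaks (22.2%, interval 12% to 35.6%) and in 14.8% of their flanking windows, beside 17.7% of all MAC PU.1 peaks. The RUNX consensus TGTGGTT was present in 8 of 54 of these peaks (14.8%, interval 6.62% to 27.1%) and in 9.26% of their flanking windows, beside 10.3% of the list. The GATA consensus AGATAA was present in 14.8% of the peaks at the receptors and in 15.7% of the flanking windows, beside 17.3% of the list. The interferon response element core GAAANNGAA was present in 11.1% of the peaks at the receptors and in 10.2% of the flanking windows, beside 14% of the list. The AP-1 consensus was present in 14.8% of the peaks at the receptors and in 13% of the flanking windows, beside 15.8% of the list, where the letters searched were TGANTCA. AP-1 was present in 12 of 45 MAC C/EBPβ peaks at the receptors (26.7%, interval 14.6% to 41.9%) and in 8.89% of their flanks (interval 3.92% to 16.8%), beside 23.3% of all MAC C/EBPβ peaks and 11.7% of their flanks. The PU.1 consensus was present in 4 of 45 MAC C/EBPβ peaks at the receptors (8.89%, interval 2.48% to 21.2%) and in 3.33% of their flanks, beside 8.03% of all MAC C/EBPβ peaks and 2.66% of their flanks. In the same C/EBPβ peaks at the receptors, RUNX was present in 13.3%, against 8.89% of the flanks and 11.1% of all MAC C/EBPβ peaks. The interferon response element core was present in 15.6%, against 13.3% of the flanks and 13.8% of the list. GATA was present in 20%, against 22.2% of the flanks and 17.5% of the list. The interval of these C/EBPβ peaks excluded the flank share for C/EBP (21.9% to 51.2%, flanks 17.8%) and for AP-1 (14.6% to 41.9%, flanks 8.89%). For PU.1, RUNX, GATA and the interferon response element core it included the flank share. The intervals of the peaks and the flanks overlapped for every consensus searched in the C/EBPβ peaks at the receptors. A match describes the letters of a window and not a bound site.

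**Figure D5:**
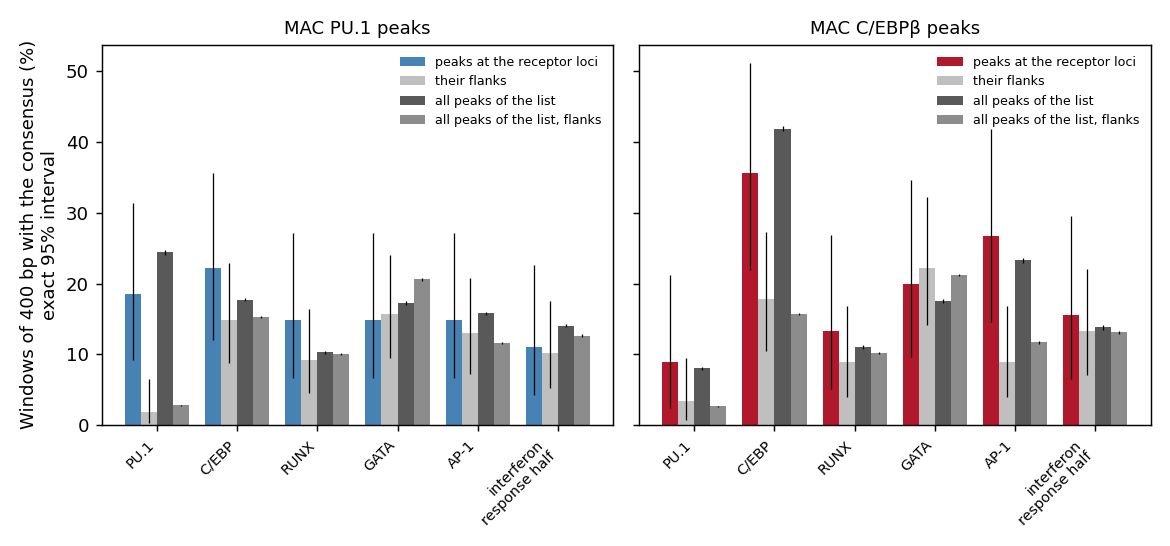
Percent of windows of 400 bp with each consensus, for MAC PU.1 peaks (left) and MAC C/EBPβ peaks (right): peaks at the receptors (coloured), their flanks, all peaks of the list and the flanks of all peaks (greys), with exact 95% intervals. The PU.1 consensus stands above the flanks in PU.1 peaks (18.5% against 1.85% at the receptors), while in C/EBPβ peaks at the receptors every consensus but GATA has a higher share than the flanks and all intervals overlap with those of the flanks.

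The list of 32 other genes of the pathway showed where the same factors lay around the receptors' partners. A MAC PU.1 peak was in the window of 31 of 32 genes and a MAC C/EBPβ peak in that of 29, with medians of 5.5 and 4 peaks, against the 79.1% and 73.8% of coding genes given above. A HP PU.1 peak was present at 17 of 32 (53.1%, against 38.2%), and a HP C/EBPβ peak at 5 (15.6%, against 14.8%), Cd14, Cnpy3, Irak3, Myd88 and Tlr12. The exception for MAC PU.1 was Tab3, and for MAC C/EBPβ they were Tab3, Sigirr and Tlr11. A peak of a list other than these 4 was present at 7 of the 32 genes, beside 27.5% of coding genes. The peak counts of these genes were not set against window length, and a window peak can lie nearer to another gene. When only window peaks nearest to the gene's own TSS were counted, 30 of the 32 held a MAC PU.1 peak.

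All 9 co-receptors and chaperones held peaks of both MAC factors, beside 71.4% of coding genes, and 6 held a HP PU.1 peak, beside 38.2%. Cd14, the co-receptor that passes lipopolysaccharide to TLR4, held 8 PU.1 and 8 C/EBPβ peaks in MAC, 1 PU.1 and 2 C/EBPβ peaks in HP and 1 C/EBPβ peak in MES. Ly96, whose product MD-2 forms the lipopolysaccharide-binding site with TLR4, held 3 and 4 in MAC and 1 PU.1 peak in HP. Unc93b1, which carries nucleic acid receptors to endosomes, held 12 PU.1 and 6 C/EBPβ peaks in MAC and 2 PU.1 peaks in HP. Ly86 and Cd180, which form a receptor complex related to TLR4 and MD-2, held 13 and 7 MAC PU.1 peaks, 7 and 9 MAC C/EBPβ peaks, and 1 and 2 HP PU.1 peaks.

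All 5 adaptors held peaks of both MAC factors, beside 71.4% of coding genes, and 3 held a HP PU.1 peak, beside 38.2%. Among them, Myd88, used by most of the receptors, held 5 MAC PU.1, 4 MAC C/EBPβ, 2 HP PU.1 and 1 HP C/EBPβ peaks. Ticam1, the adaptor TRIF of TLR3 and TLR4, held 11 MAC PU.1, 7 MAC C/EBPβ, 2 HP PU.1 and 1 HP GFI1B peaks. The next 11 genes encode kinases, ubiquitin ligases and, for Tab1, Tab2 and Tab3, partners of the kinase TAK1. Of these 11, 10 held peaks of both MAC factors, beside the same 71.4% of coding genes, and 6 a HP PU.1 peak, beside 38.2%. Irak2, a kinase of the MyD88 complex, held 22 MAC PU.1 and 22 MAC C/EBPβ peaks, the highest counts of the list. Tab3, which encodes a partner of the kinase TAK1, held neither and had 1 MES ELK4 peak. Of the 5 inhibitors, 5 held a MAC PU.1 peak and 4 a MAC C/EBPβ peak, beside 79.1% and 73.8% of coding genes. A HP PU.1 peak was present at 2 of them, Irak3 and Tnfaip3, beside 38.2%. Irak3 held 9 MAC PU.1, 8 MAC C/EBPβ, 5 HP PU.1 and 2 HP C/EBPβ peaks and 1 HP RUNX1 peak. Tnfaip3, which encodes the ubiquitin-editing enzyme A20, held 8 MAC PU.1 and 10 MAC C/EBPβ peaks and 1 HP PU.1 peak.

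Tlr5 and Tlr13 had peaks in the most lists, 4 each, and coding genes with the most similar counts over the 14 lists were sought for both, by the sum of absolute differences. Nmt1 and Trim14 had the same 14 counts as Tlr5 (1 HP C/EBPβ, 1 HP PU.1, 5 MAC C/EBPβ and 9 MAC PU.1 peaks), and Abcg4 was among 59 genes that differed from it by 1 peak. Gm46977, Plau and Uhrf1bp1 had the same 14 counts as Tlr13 (1 HP C/EBPβ, 1 HP PU.1, 8 MAC C/EBPβ and 7 MAC PU.1 peaks). Identical counts over 14 lists were thus found outside the family.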

How the data were processed

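ChIP-seq was performed on sorted populations of differentiating mouse embryonic stem cells, with fewer cells and added carrier material for HE. According to the study's methods, reads were trimmed (CutAdapt), aligned to mm10 (GRCm38) with Bowtie, restricted to unique and non-duplicate reads, and called with MACS against input of the same stage, with the p threshold chosen by eye for each list, then refined with polyPeak and set to a fixed width around the summit. Tool versions are not given in the sources used here. The deposited files hold the positions of 400 bp intervals only, without header or score, so a stricter threshold could not be tried and read depth was not used here.

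Peaks were set against RefSeq gene models of GRCm38.p6, and no peak passed a chromosome end of that assembly. Counting used a minimum overlap of 1 bp in Python scripts (version 3.11.15; NumPy 2.4.6, SciPy 1.17.1, Matplotlib 3.10.9), which were tested on simulated windows, start sites and planted consensus sequences. The TSSs were those of all 56206 annotated starts of coding transcripts. Named genes were the 10 receptors, the list of 32 pathway genes, genes with a TSS nearest to a window peak, and the 3 genes nearest in counts. The members and lists were chosen with earlier results of these data known. Alternatives to the flank, assignment, overlap, promoter distance and consensus were run.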

Additional observations from a re-analysis of the deposited data

How the results depend on the processing

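Of 112 alternative values, 101 stayed within 1.5 times the reported count or inside its counting interval, and 11 did not. The 101 include alternatives that could not change the value, so this tally does not measure robustness. The flank set the number of peaks: distinct MAC PU.1 peaks were 17 in the gene spans alone, 28 with 5 kb and 95 with 50 kb on either side, and distinct MAC C/EBPβ peaks were 17, 23 and 78. In the gene spans alone, 3 receptors held 3 HP PU.1 peaks, beside 20.2% of coding genes with one, and no receptor held a HP C/EBPβ peak, beside 6.71% (0 also with 5 kb, beside 9.36%). The shorter PU.1 consensus GAGGAA was present in 66.7% of the MAC PU.1 peaks at the receptors and 35.2% of their flanks, beside 65.3% of all MAC PU.1 peaks. A count of TSSs of curated transcripts only, chosen after seeing the data, left the promoter counts at 8 for MAC PU.1, 8 for MAC C/EBPβ and 4 for HP PU.1. With the 5′ end of the gene span as the only start they were 7, 7 and 3, and Tlr6 then had neither MAC factor at its promoter. Within 1 kb of any TSS the counts were 8, 7 and 4, and within 5 kb they were 9, 8 and 5. None of the 5 regions bound in 9 or more lists lay in the windows, so leaving them out could not change the receptor values. No paired analysis was possible because each group has 1 list. The lists give no depth, so an absent peak in a short list does not show absent binding.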

Other observations

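Beyond the 20 kb flank of Tlr13, 26158 bp from the end of the gene, lay a region shared by 6 lists (chrX:106186651-106187128): HB GATA2, HP GATA1, HP GATA2, HP RUNX1, MAC RUNX1 and MAC PU.1. Its middle lay 211 bp from a TSS of Pgk1. For 5 of these lists, all but MAC PU.1, the peak in this region was their closest peak to any of the 10 receptor genes. Of 117293 merged regions in the whole data set, 97 were shared by 6 or more lists. A second region in the same interval, 43195 bp from the end of Tlr13 and nearest to Taf9b, was shared by HB GATA2, HP GATA1, HP GATA2 and MAC RUNX1. The MAC RUNX1 list, whose identity could not be checked here, holds 72 peaks and the HB GATA2 list 97 in all. With a flank of 50 kb, 37 rather than 29 of the 140 combinations of gene and list held a peak, and those added included a HP GFI1B peak nearest to Pgk1 and HP PU.1 peaks at further receptors as well as the peaks of these regions. These regions were singled out after their values were seen, and nothing about their source was tested.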
